A study of Homo sapiens with 18 samples.

Results

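The response of BEAS-2B cells to 10 Gy of X-rays was read from 3 control and 3 irradiated libraries, in all 11734 genes of the 18475 in the table that had a value of at least 1 in at least 3 of these 6 libraries. They are 6 of the 18 libraries of a study that asked how lung epithelial cells and the lung cancer lines A549 and H446 differ in their response to radiation. BEAS-2B is a wild-type (by its label) human bronchial epithelial line that was immortalised with a hybrid of an adenovirus and SV40, whose large T antigen is known to bind p53. Irradiated cells were collected 24 h after exposure, and no separate collection time is given for the controls. The libraries come from 1 cell line, and while the study states in general that experiments were repeated, no source used here says whether each library came from a separate culture, so that p-values measure the spread between these libraries, which may be technical.

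The values are FPKM, mapped fragments scaled for the length of the transcript and the size of the library, a unit that is inferred from the table and not named in it. Values by library are given in the order of replicates 1, 2 and 3, the controls first. A log2 fold change is the mean of log2(FPKM + 1) after 10 Gy minus that of the controls, with its standard error (SE) from limma, and a gene is called at a Benjamini-Hochberg adjusted p under 0.05. One library, labelled 10 Gy replicate 2, lies near the controls over p53 target genes. Whether its cells were irradiated as labelled was not tested, and it is called by its label throughout. The counts of calls, list medians and main fold changes are therefore given with all 6 libraries and again with the 5 libraries that remain without it. Since that library was singled out on p53 targets, what these genes show without it is a description and no test of them. Other genes that move with the p53 targets over these libraries are favoured in the same way. Their adjusted p-values without replicate 2 are to be read with that limit.

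The cells carried the keratins of simple epithelium and the genes of a mesenchymal state, and little of the genes that define other cells of the lung. KRT8 was between 500.3 and 596 FPKM, KRT18 between 464 and 543, and VIM between 806 and 1047. EPCAM was between 1.86 and 3.06, CDH1 stayed below 0.55 in every library, and KRT5, KRT14 and TP63 were at or near 0, while KRT17 was between 159.3 and 188. Of the genes in the table, 0 of 4 for ciliated and secretory cells and 0 of 4 for endothelium reached an FPKM of 1 in any library, and PTPRC, the pan-leukocyte gene, was at most 0.01. The summed FPKM of the epithelial markers was between 1475 and 1568 in the controls and between 1583 and 1703 after 10 Gy, highest in 10 Gy replicate 2. Of the fibroblast markers 3 of 6 and of the leukocyte markers 2 of 5 reached 1, PDGFRB, COL1A1 and LUM and, below 13 FPKM, CD14 and CD68, while DCN and COL3A1 were at or near 0. Of the alveolar and adenocarcinoma markers 1 of 8 reached 1, AKR1C1, at most 1 FPKM. Of the neuroendocrine markers 1 of 5 did, NCAM1, at 3.68 to 5.48. One marker moved with the p53 targets, SNAI2, a transcription factor of the mesenchymal state, at 1.79, 1.63 and 1.53 in the controls and at 5, 1.02 and 6.12 after 10 Gy. Its part in the results was not tested.

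Total FPKM per library was between 493839 and 529936, and reads per library are unknown. The Pearson correlation of log2(FPKM + 1) across genes was between 0.9945 and 0.9986 among these libraries and between 0.898 and 0.912 with libraries of the other lines. All libraries but control replicate 2 also leaned along the GC content of the transcripts. The Spearman correlation across genes between GC content and a library's deviation from the gene mean came to -0.63, 0.01 and -0.38 for the controls and to 0.45, 0.70 and -0.31 for the irradiated libraries. The part of this trend in the results was not tested, and list medians after its removal (the GC correction) stand beside the others.

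Ionising radiation breaks both strands of DNA, and the kinase ATM that senses these breaks stabilises p53. As a transcription factor p53 then raises genes that hold the cell cycle (CDKN1A), repair DNA (DDB2, XPC), promote cell death (BBC3, BAX, FAS) and restrain p53 itself (MDM2, PPM1D). In lung epithelium the same injury is also known for the release of cytokines and growth factors.

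The element that p53 binds was searched in the promoters of these targets, and the matches are shown because they mark the members whose start site carries it. A full element here is 2 decamers of the p53 consensus with a spacer of at most 1 base, with at most 2 mismatches and none in the 4 core bases of each decamer. The consensus reads the same on both strands. Windows ran from 250 bases before to 50 bases after the start (RefSeq, GRCh38.p14), and 62 of the 78 tested p53 targets had at least 1. Among those with no window were ASCC3, CMBL, CSF1, FBXO22, GADD45A, PHLDA3, RRM2B, SCO2, TNFRSF10A, TNFRSF10B, TNFRSF10C, TNFRSF10D, TP53INP1 and TRIM22. The matched element is in capitals and up to 4 flanking bases on each side are in lower case (the window of GLS2 ends 1 base after its element).
AEN: agccGGGCTTGCCCGGGCATGTGGgagc
DDB2: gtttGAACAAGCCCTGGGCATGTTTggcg
FAS: tcctGGACAAGCCCTGACAAGCCAagcc
GLS2: ccggAGGCTTGCTGGGGCATGCGCt

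These elements lie at chr15:88621306-88621325 (AEN, plus strand), chr11:47214979-47214999 (DDB2, plus strand), chr10:88991309-88991328 (FAS, plus strand) and chr12:56488113-56488132 (GLS2, minus strand). Those of AEN and FAS lie before the start, and those of DDB2 and GLS2 after it, in the transcribed part. DDB2 matches with 0 mismatches and the other 3 with 2. An element was found for 4 of the 62 p53 targets (6.45%), against 97 of the 27305 genes with a window in the promoter table of RefSeq (0.355%) and 32 of the 9657 tested genes with one (0.331%). The element of FAS is shared with ACTA2, which starts nearby on the opposite strand and reads it after its own start. A match describes letters in this window only, and p53 elements also lie outside it.

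With all 6 libraries, no gene was called between irradiated and control BEAS-2B cells (0 of 11734, 0%, limma). This count depends on the fit. It was 439 with the replicate number as a block, 822 in a joint fit with the other lines, and 0 with the block and the GC correction together. An unadjusted p under 0.05 was reached by 823 genes that were higher (7.01%) and 623 that were lower (5.31%), and the smallest adjusted p was 0.241. The groups did not overlap in 878 genes that were higher (7.48%) and 1041 that were lower (8.87%). Without 10 Gy replicate 2, 223 genes were called higher (1.90%) and 8 lower (0.0682%). At 3 libraries against 3, the smallest two-sided p of an exact permutation test of 1 gene is 0.10.

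The p53 targets were the group that stood highest in 10 Gy replicates 1 and 3. Of 83 listed members, 78 were tested, and 1 of these (TNFRSF10C) had all controls below 1. RPRM, SPATA18, SYTL1, TP53AIP1 and EDA2R stayed below the filter. The median over the 78 of the log2 difference from the control mean was 0.45 in 10 Gy replicate 1, 0.58 in replicate 3 and 0.05 in replicate 2, against -0.02, 0.03 and -0.01 in the 3 controls. The median log2 fold change was 0.37 with all 6 libraries and 0.51 without replicate 2, and 0.37 and 0.51 again after the GC correction, beside medians of 0.00 over all tested genes. With all 6 libraries 0 of the 78 were called, 47 were higher (7.01% of all tested genes were) and 0 lower (5.31%) at an unadjusted p under 0.05, and in 29 the groups did not overlap, all 3 irradiated libraries being higher (7.48%). In 2 members all 3 irradiated libraries were lower than the controls (8.87%). Without replicate 2, 45 were called higher (1.90% of all tested genes were) and 0 lower. With all BEAS-2B libraries, 40 were called higher both in a joint fit with the other lines (background 4.24%) and with the replicate number as a block (2.93%), and 0 with the block and the GC correction together (0%). For the 6 roles of p53 targets that follow, the medians after the GC correction were between 0.25 and 0.60 with 6 libraries and between 0.41 and 0.91 with 5.

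**Figure D1:**
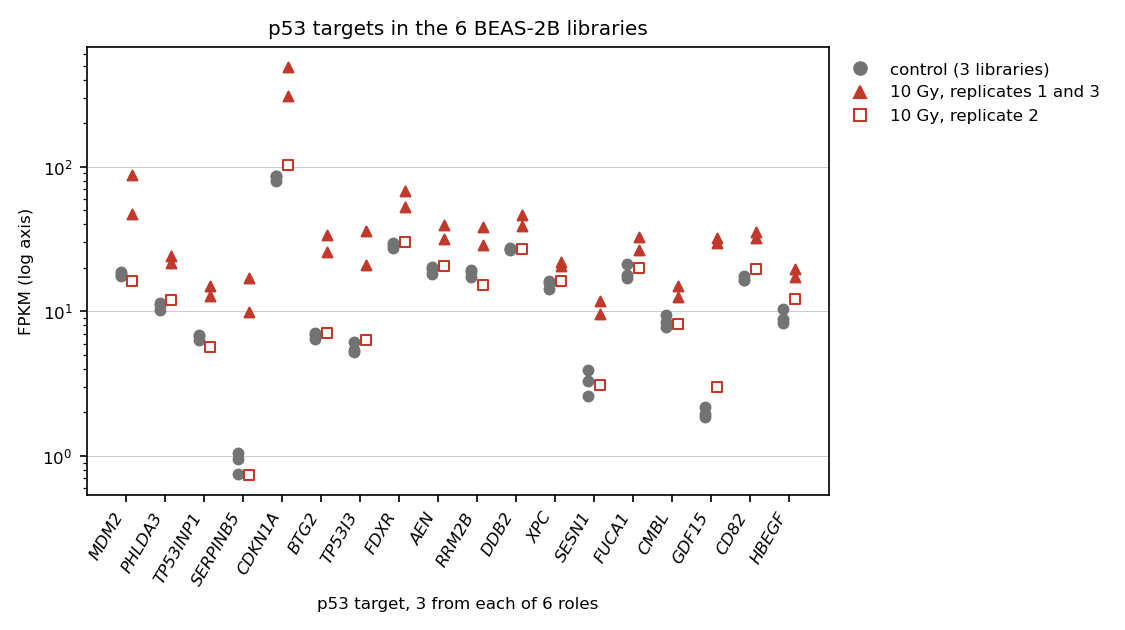
FPKM (log axis) of 18 p53 targets, 3 from each of 6 roles, in the 6 BEAS-2B libraries, where each point is 1 library. In every gene shown, 10 Gy replicates 1 and 3 (filled triangles) lie above the 3 controls (circles), while 10 Gy replicate 2 (open square) lies below both, from under the controls in MDM2 to above them in HBEGF and GDF15.

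Genes that regulate p53 or restrain it in a feedback were called higher in 6 of 8 without replicate 2 (against 1.90% of all tested genes), and their median log2 fold change was 0.47 with 6 libraries and 0.78 with 5. MDM2 (chr12:68808172-68850686), the ubiquitin ligase that degrades p53, was at 18.9, 17.5 and 18.2 FPKM in the controls and at 47.5, 16.2 and 87.8 after 10 Gy. Replicates 1 and 3 were thus above every control, with a mean 3.72-fold that of the controls, while replicate 2 was below them all. The log2 fold change of MDM2 was 1.13 ± 0.43 (SE, adjusted p = 0.34, limma) with 6 libraries and 1.77 ± 0.19 (SE) with 5. PHLDA3, a p53-induced inhibitor of AKT signalling, was at 10.2, 11.5 and 11.04 in the controls and at 21.7, 11.9 and 24.2 after 10 Gy, and its groups did not overlap. TP53INP1, which promotes p53 activity and autophagy, was at 6.89, 6.30 and 6.76 against 12.7, 5.69 and 14.9. PPM1D, the phosphatase that switches the damage signal off, was at 7.74, 7.94 and 7.68 against 15.0, 7.79 and 16.3, so that replicate 2 stayed within the control range. CCNG1, the most abundant of them at 194 to 290 FPKM, was not called in either fit.

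Growth arrest genes had the highest median of the 6 p53 roles, at 0.59 with all libraries and 0.90 without replicate 2, with 8 of 12 called higher in the latter (against 1.90% of all tested genes). CDKN1A (chr6:36676463-36687332), which encodes the cyclin-dependent kinase inhibitor p21, was at 79.9, 86.4 and 86.1 in the controls and at 310, 102 and 488 after 10 Gy. Its groups did not overlap, but replicate 2 exceeded the highest control by far less than the other irradiated libraries did. The log2 fold change of CDKN1A was 1.56 ± 0.42 (SE, adjusted p = 0.25, limma) and 2.20 ± 0.15 (SE) without replicate 2, a 4.74-fold mean in replicates 1 and 3. SERPINB5, the tumour suppressor maspin, went from 1.05, 0.75 and 0.96 to 9.93, 0.74 and 17.0, that is, it was barely present in the controls and in replicate 2 alike. BTG2, an antiproliferative adaptor of mRNA deadenylation, was at 6.90, 7.12 and 6.40 against 25.7, 7.05 and 33.8. GADD45A, which inhibits the kinase CDK1, was at 53.4, 64.5 and 56.0 against 120, 55.6 and 146. For both, replicate 2 lay inside the control range and the other irradiated libraries lay clear of it. PLK3, a stress-activated kinase, was at 3.08, 3.35 and 3.38 against 10.6, 3.41 and 11.2. PLK2, listed with them, was at 308 to 322 in the controls and 291 to 301 after 10 Gy and is 1 of the 2 members lower in every irradiated library.

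All 16 tested p53 targets of cell death had a positive log2 fold change in both fits (5917 of all 11734 tested genes did with 6 libraries and 5757 with 5). Without replicate 2, 9 were called higher (against 1.90% of all tested genes), and the median was 0.33 with all libraries and 0.51 without it. TP53I3, a quinone oxidoreductase linked to reactive oxygen species, was at 6.18, 5.23 and 5.37 in the controls and at 20.8, 6.38 and 35.8 after 10 Gy. FDXR, the mitochondrial ferredoxin reductase, was at 27.6, 28.8 and 29.7 against 52.5, 30.0 and 68.2, and AEN, a nuclease of apoptotic DNA, at 18.2, 20.4 and 19.8 against 31.6, 20.5 and 39.8. In these 3 genes replicate 2 was above the highest control by a small margin. The death receptor gene FAS was at 4.48, 4.05 and 3.82 against 6.15, 3.47 and 8.64, so that replicate 2 was the lowest of all 6 libraries. BBC3, which encodes the BCL2 antagonist PUMA, and BAX, which opens the mitochondrial outer membrane, differed from this pattern. BBC3 was at 2.73, 3.69 and 2.5 in the controls and at 6.16, 5.07 and 6.25 after 10 Gy, with a log2 fold change of 0.79 ± 0.12 (SE, adjusted p = 0.24, limma) that was the third smallest p of all genes with 6 libraries. BAX was at 65.4, 67.1 and 65.7 against 77.6, 80.5 and 78.5, where replicate 2 was the highest library, but its log2 fold change of 0.25 was not called in either fit.

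The p53 targets of DNA repair had the lowest median of the 6 roles, at 0.20 and, without replicate 2, at 0.39 (4 of 8 called higher, against 1.90% of all tested genes). RRM2B, a ribonucleotide reductase subunit, was at 18.7, 17.2 and 19.4 in the controls and at 28.9, 15.3 and 38.5 after 10 Gy. DDB2 and XPC, the damage sensors of nucleotide excision repair, were at 26.4, 27.4 and 26.9 against 39.3, 26.8 and 46.5, and at 14.4, 16.2 and 15.7 against 20.7, 16.2 and 22.1. The 3 genes share the order of the libraries, with replicate 3 highest, replicate 1 next and replicate 2 within or below the controls.

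Among 16 targets of metabolism and autophagy, 8 were called higher without replicate 2 (against 1.90% of all tested genes). Their median was 0.34 with all libraries and 0.48 without it. SESN1, a stress-induced inhibitor of mTORC1, was at 3.93, 2.62 and 3.31 in the controls and at 9.65, 3.08 and 11.9 after 10 Gy. FUCA1, a lysosomal fucosidase, was at 17.8, 21.1 and 17.0 against 26.4, 19.9 and 32.8, and CMBL, a hydrolase, at 7.83, 9.45 and 8.46 against 12.7, 8.16 and 14.9. SESN2, the stress-induced relative of SESN1, was above the controls in every irradiated library, at 2.73, 3.23 and 2.88 against 6.39, 4.14 and 6.34. DPYSL4, which the study follows as a p53-inducible gene of metabolism, was below the filter, at 0.05, 0.00 and 0.02 in the controls and 0.28, 0.02 and 0.26 after 10 Gy. Replicates 1 and 3 were its highest libraries, at a level where no fold is given.

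Secreted and surface targets of p53 held the largest log2 fold change of all tested genes without replicate 2. GDF15 (chr19:18386158-18389176), a stress cytokine of the TGF-beta family, was at 2.18, 1.85 and 1.96 in the controls and at 29.7, 3.01 and 32.1 after 10 Gy. Its mean in replicates 1 and 3 was 15.5-fold that of the controls, and replicate 2, although above every control, was far below both. The log2 fold change was 2.42 ± 0.62 (SE, adjusted p = 0.25, limma) with 6 libraries and 3.41 ± 0.09 (SE) with 5. CD82, a tetraspanin that restrains cell migration, was at 16.4, 17.6 and 16.5 against 32.3, 19.6 and 35.4, and HBEGF, a membrane-bound ligand of the EGF receptor, at 8.85, 10.5 and 8.31 against 17.3, 12.2 and 19.8. Both were higher in all 3 irradiated libraries, as was EPHA2, an ephrin receptor, at 29.8, 33.1 and 30.1 against 61.6, 37.5 and 57.9. Of 18 members 10 were called higher without replicate 2 (against 1.90% of all tested genes), and the median was 0.41, and 0.50 without it.

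Cytokines rose in part. Of 16 tested cytokine and chemokine genes, 5 were called higher and 0 lower without replicate 2, namely IL1B, IL11, LIF, CSF2 and TNFSF9 (31.2%, against 1.90% of all tested genes), and 0 with all libraries. The list's median was 0.09 with 6 libraries and 0.16 with 5 (0.15 and 0.23 after the GC correction). IL1B, the cytokine that the NLRP3 inflammasome matures, was at 15.1, 17.5 and 17.2 in the controls and at 29.8, 16.1 and 33.4 after 10 Gy. Its log2 fold change was 0.58 ± 0.21 (SE, adjusted p = 0.31, limma) with 6 libraries and 0.89 ± 0.09 (SE, adjusted p = 0.00066, limma) with 5, a 1.91-fold mean in replicates 1 and 3. IL11, a cytokine of the IL6 family, was at 2.26, 2.36 and 2.12 against 5.05, 2.34 and 5.22, and TNFSF9, a costimulatory ligand, at 6.93, 7.66 and 6.03 against 11.7, 8.01 and 10.4. TNFSF9 alone of the 5 was higher in all irradiated libraries. IL6, at 12.7 to 15.6 in the controls and 15.0 to 15.3 after 10 Gy, and the neutrophil chemokine CXCL8, at 36.7 to 43.8 and 31.8 to 49.5, were not called in either fit. IL1A, at 2.03, 1.55 and 1.81 against 2.72, 1.55 and 4.40, missed the threshold without replicate 2 (adjusted p = 0.051, limma).

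Of 15 tested inflammasome and pyroptosis genes, 1 was called higher without replicate 2 (against 1.90% of all tested genes), the sensor NLRP1, at 2.69, 2.40 and 2.51 in the controls and at 4.87, 2.62 and 5.32 after 10 Gy (log2 fold change 0.79 ± 0.10, SE, adjusted p = 0.0020, limma, and 0.54 ± 0.18, adjusted p = 0.29, with 6 libraries). The list's median was -0.09 with all libraries and -0.10 with 5 (-0.03 and -0.05 after the GC correction). P2RX7, a receptor for extracellular ATP that was named after its values were seen, was at 0.96, 1.12 and 1.01 against 1.93, 0.94 and 1.69 and missed the threshold without replicate 2 (adjusted p = 0.051, and 0.43 with 6 libraries, limma). NLRP3 was below the filter, at 0.38, 0.54 and 0.32 against 0.59, 0.36 and 0.59. CASP1, which encodes the protease that cleaves the IL1B precursor, was at 10.2, 9.26 and 9.69 against 8.71, 8.21 and 10.4, with a log2 fold change of -0.09 ± 0.10 (SE, adjusted p = 0.70, limma) and -0.03 ± 0.10 (SE, adjusted p = 0.95) without replicate 2, whose sign turns under the GC correction. CARD8, an inflammasome sensor, and NEK7, a partner of NLRP3, had the largest absolute log2 fold changes among members with a mean FPKM of at least 5, at 8.98, 7.73 and 8.87 against 6.64, 6.72 and 6.89, and at 48.2, 41.8 and 43.7 against 35.7, 34.9 and 40.1. Both were lower in every irradiated library, replicate 2 included, and neither was called (adjusted p = 0.25 and 0.28 with 6 libraries, 0.21 and 0.34 with 5, limma).

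Among 18 NF-kB subunit and feedback genes, 3 were called higher without replicate 2 (against 1.90% of all tested genes), RELB, NFKBIE and TNFAIP3. TNFAIP3, the deubiquitinase A20 that ends NF-kB signalling, was at 5.83, 6.85 and 5.07 in the controls and at 8.64, 5.64 and 9.94 after 10 Gy (log2 fold change 0.58 ± 0.12 without replicate 2, SE, adjusted p = 0.036, limma). With 6 libraries it was not called (0.37 ± 0.17, SE, adjusted p = 0.41, limma). The adhesion molecule ICAM1, at 67.2, 86.8 and 63.4 against 108, 85.6 and 97.3, did not pass (adjusted p = 0.080 with 5 libraries, limma). RELB, an NF-kB subunit, was higher in all irradiated libraries, at 7.89, 8.37 and 8.41 against 11.7, 10.5 and 11.2. The list's median was 0.19 with all libraries and 0.16 without replicate 2, and after the GC correction 0.12 and 0.17, which turns the order of the fits. The members have a median GC content of 55.7%, and its median in replicate 2 was 0.14, beside 0.21 and 0.18 in replicates 1 and 3.

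Without replicate 2, 2 of 25 interferon-stimulated genes were called higher (against 1.90% of all tested genes), ISG15 and IRF1, and 0 with all 6 libraries. ISG15, a ubiquitin-like protein, was at 35.2, 33.6 and 38.0 in the controls and at 69.4, 36.9 and 90.9 after 10 Gy (log2 fold change 1.14 ± 0.11 without replicate 2, SE, adjusted p = 0.00044, limma, and 0.78 ± 0.24, adjusted p = 0.28, with 6 libraries). IRF1, a transcription factor of the interferon response, was at 23.2, 27.2 and 22.8 against 36.5, 27.9 and 37.1 (adjusted p = 0.0091 with 5 libraries and 0.25 with 6, limma). The median of the list was 0.11 with all libraries and 0.12 without replicate 2 (0.07 and 0.10 after the GC correction), and 20 of 25 members had a positive change in each fit, as had 5917 (6 libraries) and 5757 (5 libraries) of all 11734 tested genes.

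The growth factor AREG had one of the largest rises. This ligand of the EGF receptor (chr4:74445136-74455005) was at 1.51, 1.52 and 0.54 in the controls and at 14.8, 1.3 and 24.2 after 10 Gy, a 16.4-fold mean in replicates 1 and 3, with replicate 2 inside the control range. Its log2 fold change was 2.18 ± 0.67 (SE, adjusted p = 0.27, limma) with 6 libraries and 3.22 ± 0.23 (SE, adjusted p = 5.2e-05, limma) with 5. DUSP5, a nuclear phosphatase that restrains ERK, was at 7.40, 8.22 and 7.28 against 15.5, 8.06 and 16.3 and was called as well without replicate 2 (adjusted p = 0.00027, and 0.26 with 6 libraries, limma). With HBEGF and DUSP6, 4 of 14 tested genes of this receptor's ligands and feedback were then called higher (against 1.90% of all tested genes) and 0 lower, and their median was 0.17 with all libraries and 0.20 without replicate 2 (0.19 and 0.21 after the GC correction).

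Immediate early and AP-1 genes were called in 6 of 15 without replicate 2 (against 1.90% of all tested genes), all higher (FOS, ATF3, EGR1, IER2, IER3 and DUSP1), and their median was 0.37 with all libraries and 0.44 without replicate 2. ATF3, a stress-induced transcription factor, was at 14.3, 16.5 and 17.3 in the controls and at 55.3, 15.0 and 68.2 after 10 Gy (log2 fold change 1.88 ± 0.11 without replicate 2, SE, adjusted p = 1.3e-05, limma, and 1.23 ± 0.42, adjusted p = 0.29, with 6 libraries). EGR1, a zinc finger factor of the growth factor response, was at 20.1, 25.6 and 19.9 against 61.3, 31.6 and 55.9 (adjusted p = 0.00013 with 5 libraries and 0.24 with 6, limma). While ATF3 of replicate 2 lay within the control range, EGR1 of replicate 2 was above it, and in 8 of the 15 members all irradiated libraries exceeded all controls (against 7.48% of all tested genes). The list's median in replicate 2 was 0.21, against 0.44 and 0.39 in replicates 1 and 3 and -0.04, 0.12 and -0.08 in the controls. Its members have a median GC content of 55.4%, above the 48.1% of all tested genes, and after the GC correction the median log2 fold changes were 0.27 and 0.39.

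Among 25 matrix, TGF-beta and plasminogen genes, 2 were called higher (against 1.90% of all tested genes) and 0 lower (0.0682%) without replicate 2, PLAT among them. PLAT, tissue plasminogen activator, was at 11, 11.99 and 9.93 in the controls and at 19.6, 13.4 and 19.6 after 10 Gy (log2 fold change 0.79 ± 0.09 without replicate 2, SE, adjusted p = 0.0016, limma, and 0.61 ± 0.14, adjusted p = 0.24, with 6 libraries). Its values were higher in all 3 irradiated libraries, with replicate 2 nearest to the controls. The median of the list was 0.15 with all libraries and 0.10 without replicate 2, and fell to 0.08 and 0.05 after the GC correction.

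**Figure D2:**
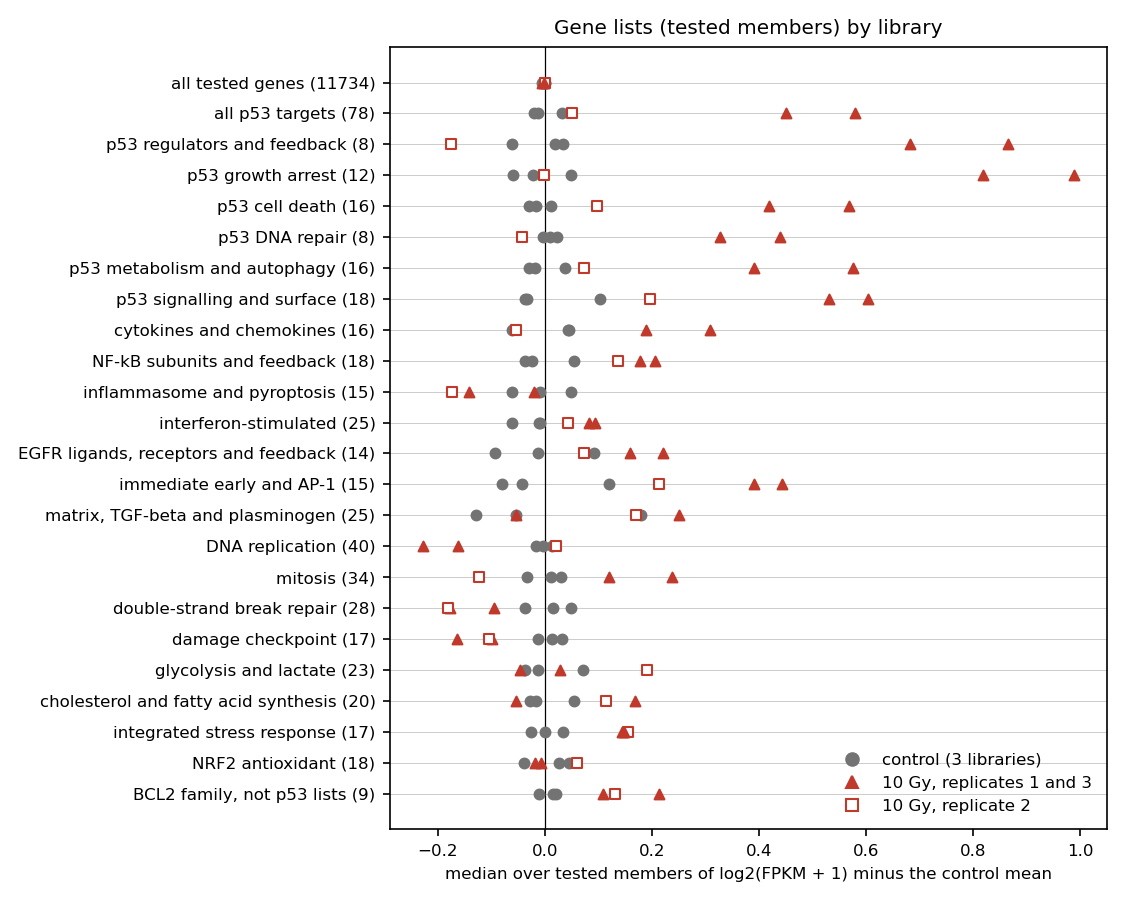
Median over the tested members of each gene list of log2(FPKM + 1) minus the control mean, by library, with the number of tested members in brackets. In the p53 lists 10 Gy replicates 1 and 3 (triangles) stand apart from the controls (circles) and from 10 Gy replicate 2 (open squares), and in DNA replication they stand on the low side.

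DNA replication genes stood lower in 10 Gy replicates 1 and 3, and mitosis genes higher. Of 40 tested replication genes, 39 had a negative log2 fold change without replicate 2 in place of 37 with all libraries, where 5757 and 5917 of all 11734 tested genes were positive, and the median was -0.21 and -0.12. The median difference from the control mean was -0.16 in replicate 1, -0.23 in replicate 3 and 0.02 in replicate 2. After the GC correction the median fold changes were -0.23 and -0.14. The changes were small, and 1 gene was called lower without replicate 2 (against 0.0682% of all tested genes), PRIM1, which encodes the primase subunit that starts each new strand, at 61.4, 57.1 and 61.8 in the controls and at 46.5, 51.1 and 47.2 after 10 Gy (log2 fold change -0.35 ± 0.08, SE, adjusted p = 0.049, limma, and -0.31 ± 0.07, adjusted p = 0.24, with 6 libraries). CCNE2, the cyclin of S phase entry, was at 39.5, 34.3 and 39.1 against 26.3, 30.2 and 29.9 and did not pass (adjusted p = 0.061 with 5 libraries and 0.24 with 6). Both were lower in every irradiated library, replicate 2 included. Over the 40 genes, replicate 2 was above the control range in 16 and below it in 11, beside 33.3% and 34.3% of all tested genes. In CDT1, MCM5, LIG1, TK1 and POLD1, chosen after their values were seen, it was the highest of the 6 libraries.

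Of 34 tested mitosis genes, 32 had a positive log2 fold change without replicate 2 and 21 with all libraries (5757 and 5917 of all 11734 tested genes did), with medians of 0.16 and 0.06 (0.19 and 0.10 after the GC correction). The median difference from the control mean was 0.12 in replicate 1, 0.24 in replicate 3 and -0.12 in replicate 2. Without replicate 2, 5 were called higher (against 1.90% of all tested genes), PLK1, CDC20, CCNB1, AURKA and CENPA, which encode regulators and a centromere histone of mitosis. PLK1, a mitotic kinase, was at 56.2, 66.7 and 55.7 in the controls and at 87.4, 73.3 and 78.4 after 10 Gy (log2 fold change 0.47 ± 0.10, SE, adjusted p = 0.038, limma, and 0.42 ± 0.09, adjusted p = 0.24, with 6 libraries), and CDC20, the activator of the anaphase-promoting complex, at 108, 115 and 113 against 147, 127 and 159 (adjusted p = 0.020 with 5 libraries and 0.24 with 6). Both were higher in all irradiated libraries. CCNB1, cyclin B1, was at 138, 127 and 145 against 175, 133 and 195, with replicate 2 inside the control range. In bulk RNA fewer cells in a phase and less RNA per cell cannot be told apart.

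**Figure D3:**
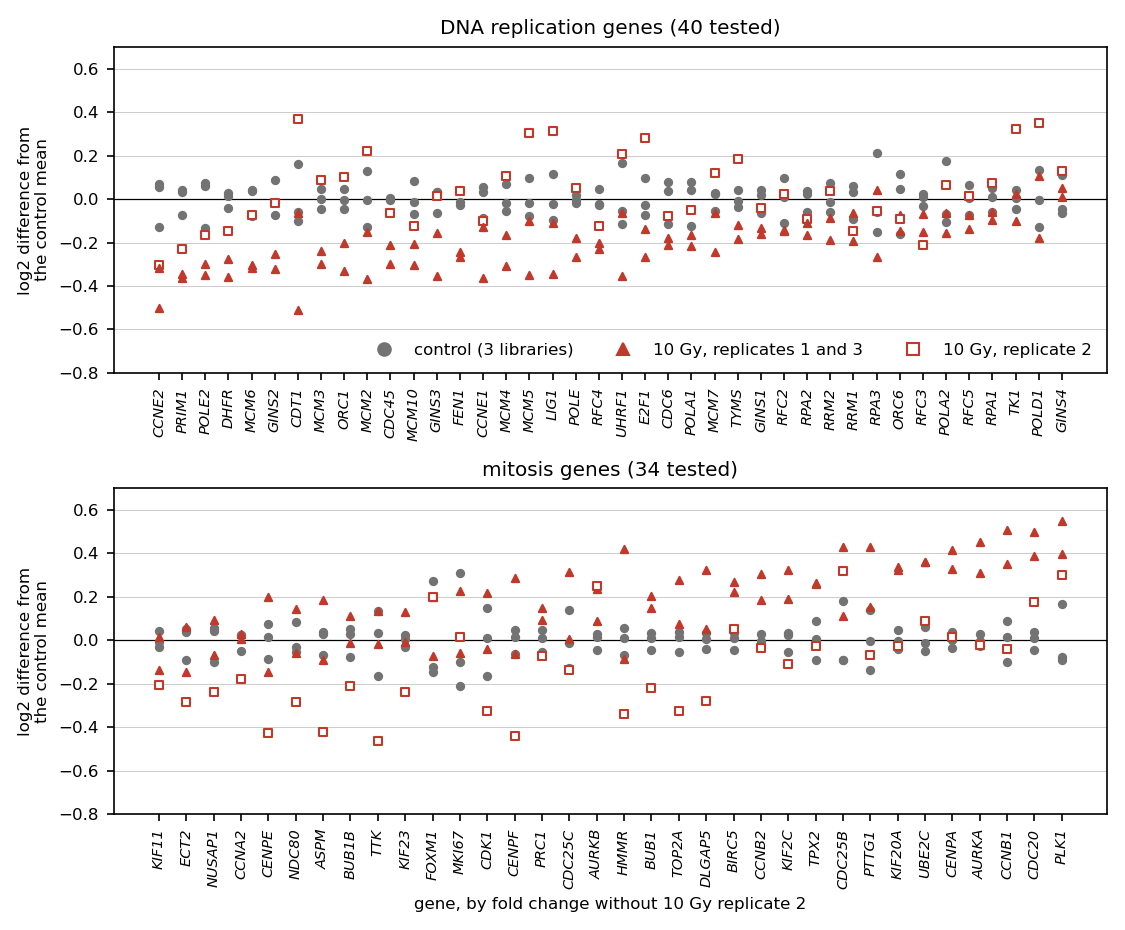
Difference from the control mean of log2(FPKM + 1) for 40 replication genes (top) and 34 mitosis genes (bottom), in order of fold change without 10 Gy replicate 2, where each point is 1 library. In 10 Gy replicates 1 and 3 (triangles) most replication genes lie below 0 and most mitosis genes above it, while 10 Gy replicate 2 (open squares) is above 0 for part of the first and below 0 for part of the second.

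Double-strand break repair genes were not called in either fit (0 of 28, against 1.90% higher and 0.0682% lower of all tested genes without replicate 2), with a median of -0.14 and, without replicate 2, of -0.16 (-0.11 and -0.12 after the GC correction), and 11 were lower at an unadjusted p under 0.05 with all 6 libraries, against 5.31% of all tested genes. BRIP1, a helicase partner of BRCA1, was at 24.3, 18.8 and 21.3 in the controls and at 13.8, 16.0 and 17.2 after 10 Gy (adjusted p = 0.12 without replicate 2 and 0.25 with it, limma), and XRCC2, a gene of homologous recombination, at 16.7, 13.3 and 15.3 against 10.3, 10.9 and 13.3. BRIP1 was lower in every irradiated library, and XRCC2 overlapped by a single pair of values. This list has a median GC content of 42.3%, and replicate 2 was below the control range in 19 of its 28 members, as it was in 34.3% of all tested genes. Among 17 damage checkpoint genes, with medians of -0.12 and, without replicate 2, of -0.15 (-0.10 and -0.13 after the GC correction), 1 was called lower in the latter (against 0.0682% of all tested genes), CLSPN, the adaptor of the kinase CHK1, at 15.3, 14.6 and 15.0 against 11.1, 13.7 and 11.6 (log2 fold change -0.37 ± 0.08, SE, adjusted p = 0.048, limma, and -0.29 ± 0.09, adjusted p = 0.28, with 6 libraries). The kinase gene ATM was at 9.85, 9.02 and 9.81 against 7.76, 6.66 and 7.79, lower in every irradiated library but not called (adjusted p = 0.25 with 6 libraries and 0.22 with 5, limma).

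Metabolic and antioxidant lists held 0 calls, near the share over all tested genes. Of 23 glycolysis genes, 20 cholesterol and fatty acid genes and 18 NRF2 targets, 0 were called in either fit, against 1.90% higher and 0.0682% lower of all tested genes without replicate 2 and 0% with it. Their medians were 0.07, 0.07 and -0.0014 with all libraries and -0.02, 0.05 and -0.03 without replicate 2. After the GC correction the medians were 0.01, 0.03 and -0.03 with all libraries and -0.06, 0.04 and -0.04 without replicate 2, so that the first of them was nearly 0 with 6 libraries. PDK1, which inhibits pyruvate dehydrogenase, was at 34.2, 29.2 and 29.5 in the controls and at 21.8, 28.99 and 27.8 after 10 Gy, and the glucose transporter SLC2A1 at 40.5, 49.3 and 37.2 against 50.6, 55.1 and 47.6. FDFT1, squalene synthase, was at 77.9, 75.8 and 84.4 against 97.1, 79.3 and 89.97. Of these 3 genes none passed, with adjusted p of 0.27, 0.50 and 0.27 without replicate 2 and of 0.41, 0.34 and 0.48 with it (limma). The antioxidant genes TXNRD1 and HMOX1, thioredoxin reductase and heme oxygenase, lay on opposite sides of their controls, at 535, 465 and 529 against 418, 417 and 446.45, and at 8.51, 9.78 and 9.91 against 11.2, 11.3 and 10.9. In both the groups did not overlap, and neither was called (adjusted p = 0.37 and 0.39 without replicate 2, and 0.29 and 0.32 with it, limma).

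Of 17 genes of the integrated stress response (median 0.11, and 0.12 without replicate 2, or 0.09 and 0.12 after the GC correction), 1 was called higher without replicate 2 (against 1.90% of all tested genes), DDIT3, which encodes the transcription factor CHOP, at 16.9, 16.1 and 16.1 in the controls and at 31.4, 13.0 and 43.9 after 10 Gy (log2 fold change 1.14 ± 0.12 without replicate 2, SE, adjusted p = 0.00075, limma). Replicate 2 was below every control, and with 6 libraries DDIT3 was not called (0.65 ± 0.32, SE, adjusted p = 0.43, limma). PPP1R15A, the phosphatase subunit that ends this response, was at 29.7, 35.5 and 29.1 against 41.3, 34.2 and 40.9 and did not pass (adjusted p = 0.089 with 5 libraries and 0.29 with 6). Of 9 BCL2 family genes outside the p53 lists (median 0.15, and 0.11 without replicate 2, but 0.04 in both fits after the GC correction), 1 was called higher without replicate 2 (against 1.90% of all tested genes). This was BAK1, a relative of BAX (adjusted p = 0.012, and 0.25 with 6 libraries, limma), at 17.0, 17.97 and 18.3 against 24.4, 19.9 and 26.7. MCL1, a survival member, was not called, at 95.8, 100.01 and 93.1 against 115, 92.0 and 117.

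Outside all lists, 150 further genes were called higher without replicate 2, and 6 of the 8 that were called lower. LOC112267876, an uncharacterised locus, was at 3.82, 3.24 and 2.39 in the controls and at 26.3, 4 and 35.0 after 10 Gy, the third largest rise of the abundant genes (log2 fold change 2.93 ± 0.16, SE, adjusted p = 1.2e-05, limma, and 2.05 ± 0.56, adjusted p = 0.25, with 6 libraries). The 8 genes that fell without replicate 2 are CDRT4, SAA4, TMSB15A, CCL28, GCAWKR, FANCL, CLSPN and PRIM1. CCL28, a mucosal chemokine, was at 7.91, 8.45 and 8.43 against 5.08, 7.92 and 6.07, and the non-coding RNA GCAWKR at 10.5, 9.82 and 10.5 against 7.03, 8.32 and 7.81. FANCL, the ubiquitin ligase of the Fanconi anaemia pathway, was at 23.8, 24.7 and 24.6 against 17.3, 20.3 and 19.0 (log2 fold change -0.41 ± 0.08, SE, adjusted p = 0.031, limma, and -0.36 ± 0.08, adjusted p = 0.24, with 6 libraries). In GCAWKR and FANCL replicate 2 lay between the controls and the other irradiated libraries.

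The smallest p-values with all 6 libraries belonged to genes in which replicate 2 moved with the other irradiated libraries. This follows by construction, since a small spread within the groups lowers p, and none of these genes was called with 6 libraries. PHLDA2, an imprinted gene of placental growth, was at 9.58, 10.4 and 9.42 in the controls and at 14.6, 14.5 and 14.4 after 10 Gy (log2 fold change 0.52 ± 0.08, SE, adjusted p = 0.24, limma, and 0.52 ± 0.09, adjusted p = 0.012, without replicate 2). ACTA2, smooth muscle actin, was at 3.21, 3.25 and 2.67 against 5.81, 4.91 and 6.85, and KCTD11, an adaptor of a ubiquitin ligase, at 7.85, 9.51 and 8.53 against 13.6, 11.9 and 14.3. SAA4, a serum amyloid A gene, was at 1.58, 1.5 and 1.91 against 0.71, 0.67 and 0.25. With BBC3 these are the 5 genes of smallest p, all with groups that did not overlap, and all were called without replicate 2.

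The genes called without 10 Gy replicate 2 were then read in that library, which is set against the same controls. Since this library was singled out on p53 targets, its values for these targets restate that choice. The genes were called against the same controls, so that a gene with low controls by chance is favoured in both, and the share over all tested genes is not the share that no change would give. The shares that follow are therefore a description with no test. Of the 223 genes called higher, 131 (58.7%) were above the control range in it and 28 were below, while 33.3% of all tested genes were above. The p53 targets among them were above in 20 of 45 (44.4%) and the other genes in 111 of 178 (62.4%). The median log2 difference of replicate 2 from the control mean was 0.05 for the p53 targets and 0.14 for the others, against log2 fold changes without it of 0.83 and 0.58. Of the 8 genes called lower, 7 were below the control range in it, as were 34.3% of all tested genes, and after the GC correction 5 of the 7 with a known GC content were, as were 26.4% of all. The GC content of the transcripts moves with this result, since the 177 other genes with a known GC content have a median of 55.1% and the 45 p53 targets of 50%. After the GC correction, 36.9% of the genes called higher were above the control range, with 42.2% of the p53 targets and 35.6% of the others, and 25.4% of all tested genes.

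**Figure D4:**
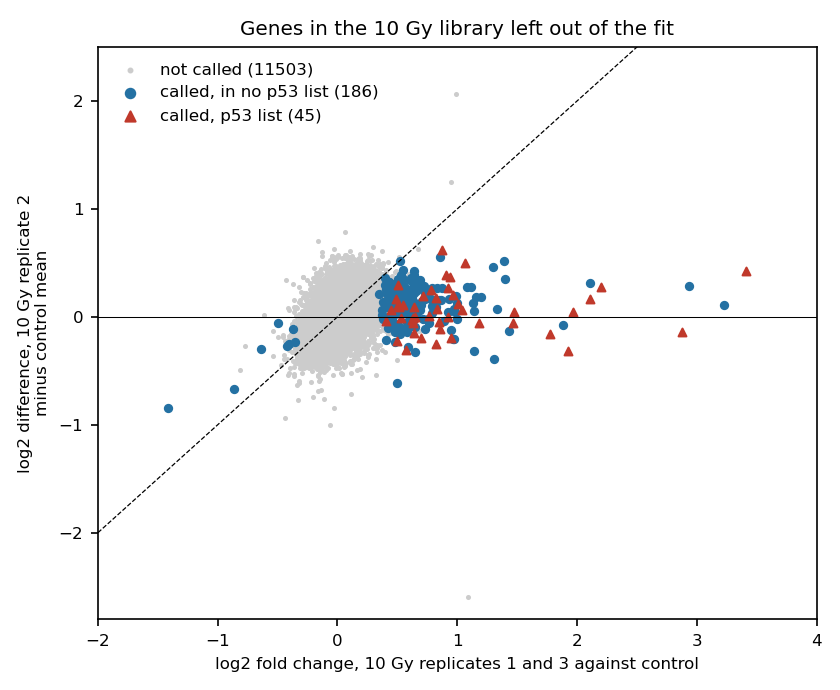
Each point is 1 of 11734 genes, with the log2 fold change of 10 Gy replicates 1 and 3 against control across and the log2 difference of 10 Gy replicate 2 from the control mean upwards. The 231 called genes, 45 of them p53 targets (triangles), lie mostly far below the broken line of equal change when higher, and near 0 on the vertical axis.

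Differences in response between the lines were tested in 1 fit of all 18 libraries over 13071 genes, for MDM2, CDKN1A, IL1B and CASP1 and the 10 largest rises in BEAS-2B cells. The latter were chosen for their size in BEAS-2B cells, so their differences are a description. The study took up IL1B from the inflammatory genes of these irradiated BEAS-2B cells, so its difference may follow in part from that choice. In A549 cells, known to carry wild-type p53, the log2 fold change of CDKN1A was 1.54, beside 1.56 in BEAS-2B cells with all libraries, and the difference was 0.01 ± 0.45 (SE, adjusted p = 0.99, limma). MDM2 differed by -0.63 ± 0.47 (SE, adjusted p = 0.34, limma). Without replicate 2, which was singled out on such genes, the differences were 0.65 ± 0.16 and 0.01 ± 0.21 (SE) and are a description with no test. Against H446 cells, where CDKN1A and MDM2 had log2 fold changes of -0.13 and -0.11, the CDKN1A difference was 1.68 ± 0.45 (SE, adjusted p = 0.014, limma) and the MDM2 difference 1.24 ± 0.47 (SE, adjusted p = 0.066). The values without replicate 2, again a description, were 2.32 ± 0.16 and 1.88 ± 0.21 (SE).

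IL1B separated BEAS-2B from H446 cells in both settings, by 0.85 ± 0.26 (SE, adjusted p = 0.028, limma) and 1.16 ± 0.17 (SE, adjusted p = 0.00021), and from A549 cells without replicate 2 only, by 0.58 ± 0.17 (SE, adjusted p = 0.016), in place of 0.27 ± 0.26 (SE, adjusted p = 0.47). CASP1 went the other way against A549 cells, with a difference of -0.76 ± 0.13 (SE, adjusted p = 0.00033, limma) and a log2 fold change of 0.67 in A549 cells. AREG and ATF3 had opposite signs in BEAS-2B and A549 cells, at 2.18 against -1.19 and at 1.23 against -1.06, and SERPINB5, at 1.87, was at -0.22 in A549 and -0.14 in H446 cells. The fall in A549 cells passed for ATF3 (adjusted p = 0.012, limma) but not for AREG (0.074), nor did SERPINB5 in A549 (0.76) or H446 cells (0.88). In the fit of the BEAS-2B libraries alone, none of these rises was called with all of them. With all libraries, GDF15 did not pass against A549 cells (adjusted p = 0.064, limma), nor did LOC112267876 against A549 (adjusted p = 0.058) or H446 cells (adjusted p = 0.063). With the replicate number within each line as a block, all of these passed (adjusted p = 0.036, 0.045 and 0.048, limma), as did MDM2 against H446 cells (0.038).

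**Figure D5:**
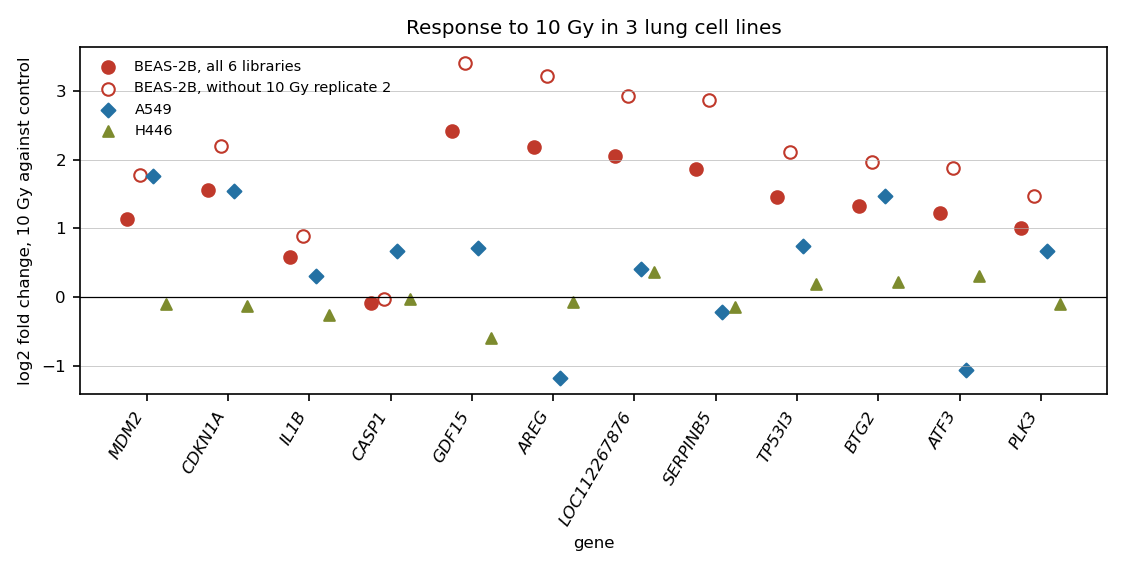
Log2 fold change on the log2(FPKM + 1) scale after 10 Gy in 3 lung cell lines, for 12 genes, the 10 largest rises in BEAS-2B cells among them, where open circles leave out BEAS-2B 10 Gy replicate 2. GDF15, AREG, LOC112267876 and SERPINB5 have higher points in BEAS-2B cells than in the other lines, although with all libraries GDF15 against A549 cells and LOC112267876 against both lines passed the threshold only with a replicate block, while MDM2 and BTG2 in A549 cells lie at or above the BEAS-2B value of all 6 libraries.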

How the data were processed

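Poly(A) RNA of BEAS-2B cells was read by the authors on a BGISEQ-500 (single-end, 50 bases). HISAT2 2.0.4, Bowtie2 2.2.5, RSEM 1.2.12 and hg38 are named in the submitters' processing notes. The deposited values, 1 per gene and library, were treated as FPKM, scaled by the authors to transcript length and library size. The unit was inferred, and depth is unknown. Groups came from the sample titles. Genes that reached 1 FPKM in 3 or more of the 6 libraries were tested on log2(FPKM + 1), which understates the change of low genes, with limma 3.58.1 (eBayes with trend) in R 4.3.3 and Benjamini-Hochberg adjustment. The members, gene lists and the rule for named genes were chosen with earlier results of these data known. The rule names, by size of change without 10 Gy replicate 2 at a mean FPKM of at least 5, 3 genes per p53 list, 2 per other list, the 10 largest rises and all falls among called genes, 7 genes the study follows or that report on p53, and the 5 smallest p with all libraries. Some genes within the rule are not reported here, and further genes were named after their values were seen. A gene can stand in 2 lists. The GC correction subtracted a loess curve (span 0.5) of each library against transcript GC, from the longest transcript in GENCODE 29 (11641 of 11734 genes). Of 18475 identifiers, 18181 matched RefSeq (GRCh38.p14), from which gene positions and promoters came. Reads of near-identical gene copies may be shared. On simulated libraries with 11734 genes, the fit of 6 libraries recovered 94.0% of genes changed by 0.5 (log2) and that of 5 libraries 73.1%, and both recovered 100% at 1 and 2, with 14 and 16 false calls. In the simulation all irradiated libraries carried the full change, noise was independent between genes and libraries, and there was no GC trend. Only genes with control levels above about 5 FPKM were changed. These shares therefore check the fit and do not give its power in the real libraries.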

Additional observations from a re-analysis of the deposited data

Results flagged for a closer look

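The responses to 10 Gy of the following genes differed between BEAS-2B cells and another line past an adjusted p of 0.05 in the fit of all 18 libraries (limma). Against A549 cells the difference in log2 fold change, BEAS-2B minus A549, was -0.76 for CASP1, 3.37 for AREG, 2.09 for SERPINB5 and 2.29 for ATF3. Against H446 cells it was 1.68 for CDKN1A, 0.85 for IL1B, 3.01 for GDF15, 2.26 for AREG, 2.01 for SERPINB5 and 1.11 for PLK3. AREG, SERPINB5, ATF3, CDKN1A, GDF15 and PLK3 were picked for their rise in BEAS-2B cells, so that a difference of this sign follows in part from the choice. For CASP1 against A549 and IL1B against H446 cells, which are not on the p53 lists, the difference was also past the threshold without BEAS-2B 10 Gy replicate 2. Both were taken because the study follows them, and the study took up IL1B from the inflammatory genes of these irradiated cells. The IL1B difference may thus also follow in part from that choice. Of 13071 genes tested, 3999 differed from A549 and 2971 from H446 cells, and 3925 and 2414 without that library.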

How the results depend on the processing

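With all 6 libraries the count of called genes was 0 under quantile normalization, no trend, a filter of 1 FPKM in all 6 libraries, a pseudocount of 0.1, the GC correction, and the GC correction with the replicate block. It was 10 with no filter on low values and 822 with all 18 libraries in 1 fit. Leaving out each library gave 0 to 231, where the 231 were without 10 Gy replicate 2. Without that library the count was 231, and it was 80 with no filter, 911 in the joint fit of the lines (17 libraries), 102 at an adjusted p under 0.01 and 31 at an absolute log2 fold change of at least 1. Leaving out a further library gave 100 to 570, with 101 without control replicate 1, 570 without control replicate 2, 100 without control replicate 3 and 112 without 10 Gy replicate 3. Fewer genes are called at a stricter limit by construction, and for the other settings the cause was not tested. With no filter, 19 of the 231 genes were still called.

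Whether the replicate numbers pair the libraries cannot be decided here. Deviations of libraries with the same number from their group means correlated at -0.13, 0.32 and 0.31, and libraries with different numbers were not compared. As a block the replicate numbers gave 439 genes with 6 libraries (344 higher) and 898 with 5 (651 higher), and 1462 with 5 libraries and the GC correction (879 higher). The split of calls moved from 96.5% higher without replicate 2 to 72.8% in that joint fit of 17 libraries and to 60.1% with the block and the GC correction, and it was 60.6% with all 18 libraries (498 higher, 324 lower).

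The median of the p53 targets without replicate 2 was 0.45 to 0.58 when a further library was left out, and 30 to 54 of the 78 were called higher, against 7 with no filter, 58 with the block, 60 with the block and the GC correction and 61 in the joint fit. With all 6 libraries, 40 were called higher with the block and 40 in the joint fit, and 0 under the other settings that kept all 6. CASP1 turned positive without replicate 2, at 0.019 with the GC correction and 0.0062 with the block as well, and leaving out 1 more library gave -0.14 to 0.088. After the GC correction, chosen after seeing the data, 36.9% of the genes called higher and 35.6% of those outside the p53 lists were above the controls in 10 Gy replicate 2.

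Without BEAS-2B 10 Gy replicate 2, the difference from A549 cells became 0.013 for MDM2 and 0.50 for BTG2, both reversed in sign, 0.65 for CDKN1A, 2.69 for GDF15, 2.52 for LOC112267876, 1.36 for TP53I3 and 0.80 for PLK3, and that from H446 cells 1.88 for MDM2, 2.56 for LOC112267876, 1.91 for TP53I3, 1.74 for BTG2 and 1.58 for ATF3. All but MDM2 against A549 cells were then past the threshold, but these genes are p53 targets, on which that library was singled out, or were picked for their rise without it, so that this restates the choice. IL1B, on no p53 list, passed against A549 cells at 0.58. The study took it up from these data, so this may also follow in part from that choice. With the replicate number within each line as a block, GDF15 (1.70) and LOC112267876 (1.64) passed against A549 cells and MDM2 (1.24), LOC112267876 (1.68) and TP53I3 (1.26) against H446 cells. The values hold no counts, so a depth limit cannot be given.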
